A study of Mus musculus with 1 sample.

Results

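The cells described here carried transcripts of the steroid-producing adrenal cortex together with transcripts of cell division, and they came from a library made from dissected adrenal medulla. They were chosen by their unique molecular identifiers (UMIs), each of which stands for 1 captured transcript molecule. A member had 500 to 5000 detected genes, at most 20% mitochondrial UMIs, a UMI for at least 5 of 9 cortex genes (*Star*, *Nr5a1*, *Cyp11a1*, *Hsd3b1*, *Cyp11b1*, *Cyp21a1*, *Mc2r*, *Fdx1* and *Scarb1*) and a UMI for at least 3 of 6 cell cycle genes (*Cenpf*, *Cks2*, *Prc1*, *Hmgb2*, *Birc5* and *Ube2c*). It also had fewer than 4 of 7 chromaffin genes and fewer than 4 of 7 endothelial genes. Of the 10139 cells within the limits on genes and mitochondrial UMIs, out of 11214 barcodes, 275 cells met the rule, or 2.71%. The same cortex, chromaffin and endothelial limits were met by 3160 cortex cells, so that the cycling cells made up 8.70% of these (exact 95% binomial interval 7.74 to 9.74).

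Single cells had been captured in droplets from the medullae of 10 adrenals of 5 mice of mixed sex at postnatal day 15, an age of rapid adrenal growth. All adrenals were pooled into 1 library from 10000 viable cells. The methods that the authors give for this library name no transgene and no treatment. The authors kept all their mice on mixed backgrounds backcrossed to CD1. Most of the cortex had been trimmed away by hand before digestion, so the cortex cells are those that the trimming left. With 1 library there were no replicates, no test between samples was possible, and every interval below is a 95% interval that covers counting error only.

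The cortex makes steroid hormones from cholesterol: STAR carries cholesterol into the mitochondrion, CYP11A1 cleaves its side chain, and HSD3B1, CYP21A1 and CYP11B1 finish corticosterone, under the control of the pituitary hormone ACTH and its receptor MC2R. In the mouse, *Wnt4* marks the outer zona glomerulosa, *Cyp11b1* the zona fasciculata, and *Akr1c18* the X-zone, a transient layer next to the medulla. A dividing cell first copies its DNA with a replication machinery that includes the MCM helicase and the clamp PCNA, and then builds a spindle under the kinase CDK1 and its cyclins, while CDK inhibitors hold the cycle back.

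The cells were compared with 1943 non-cycling cortex cells, which met the same cortex, chromaffin and endothelial limits and had no UMI for any of the 6 cycle genes. The cycling cells held 2762969 UMIs in all, with 1612 to 23761 UMIs per cell (median 9047) and a median of 3029 genes. The non-cycling cells held 10770287 UMIs, with 716 to 24806 per cell (median 4696) and a median of 1886 genes. The ranges overlapped and the cycling cells were deeper in the median. Part of this follows from the rule, because a deep cell can show more marker genes. Levels are therefore given as UMIs per 1000000 UMIs of the summed group (CPM). Their intervals are exact Poisson intervals, and those of ratios are exact and conditional on the summed counts. Each UMI is read at the 3′ end of a transcript, so levels are per transcript and need no division by gene length. The median mitochondrial share was 5.91% in cycling and 7.82% in non-cycling cells, and the doublet caller Scrublet marked 10 cycling cells (3.64%) and 48 non-cycling cells (2.47%).

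The label of cycling cortex was checked against 4 markers, of which *Mki67* and *Top2a* were not part of the rule. *Mki67*, which coats mitotic chromosomes, was at 391 CPM (368 to 415) in cycling and at 2.79 CPM in non-cycling cells, and *Top2a*, the topoisomerase that untangles replicated DNA, was at 564 CPM (536 to 592) and 2.69 CPM. At least 1 of the 2 genes had a UMI in 250 of the 275 members, and 25 members had neither. *Mki67* was detected in 82.2% of members against 1.39% of non-cycling cells, and at 2000 UMIs per cell, to which each cell was thinned at random, in 45.8% against 0.489%. *Star* was detected in 99.6% of both groups. *Nr5a1*, which encodes the steroidogenic factor SF-1, was detected in 69.8% of cycling and 53.0% of non-cycling cells, but at 2000 UMIs in 19.8% (15.2 to 25.01) and 26.3% (24.3 to 28.3). Both genes were part of the rule, which asked for 5 of the 9 cortex genes, so that they do not check the label. *Mrap*, the accessory protein of the ACTH receptor, was not part of it, and was at 1013 CPM in cycling and 1323 CPM in non-cycling cortex cells, against 35.1 CPM in cycling endothelial and 50.0 CPM in cycling chromaffin cells.

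The limit of 3 cycle genes cut through a graded series. Of the cortex cells, 1943 had none of the 6 genes, 744 had 1, 198 had 2, 56 had 3, 49 had 4, 50 had 5 and 120 had all 6. Just inside the limit, the 56 cells with 3 genes had *Mki67* at 147 CPM and *Top2a* at 115 CPM, with *Mki67* in 64.3% of cells. Just outside, the 198 cells with 2 genes had *Mki67* at 33.2 CPM and *Top2a* at 20.04 CPM, with *Mki67* in 17.2% of cells. In the cells with all 6 genes the levels were 493 and 880 CPM. Cells below the limit were not free of the programme, since 137 of the 2885 cortex cells under it had a UMI for *Mki67* or *Top2a*. Steroidogenic genes went the other way. The 15 of them that the rule did not use, described below, summed to 5310 CPM with no cycle gene, 4789 CPM with 2, 4365 CPM with 3 and 4083 CPM with all 6, and were level from 4 genes on, at 3988, 4024 and 4083 CPM. *Star*, a rule gene, was at 6900, 6484, 5923 and 4383 CPM with none, 2, 3 and all 6. The groups are set by the cycle genes of the rule, so that the series is a description.

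**Figure D1:**
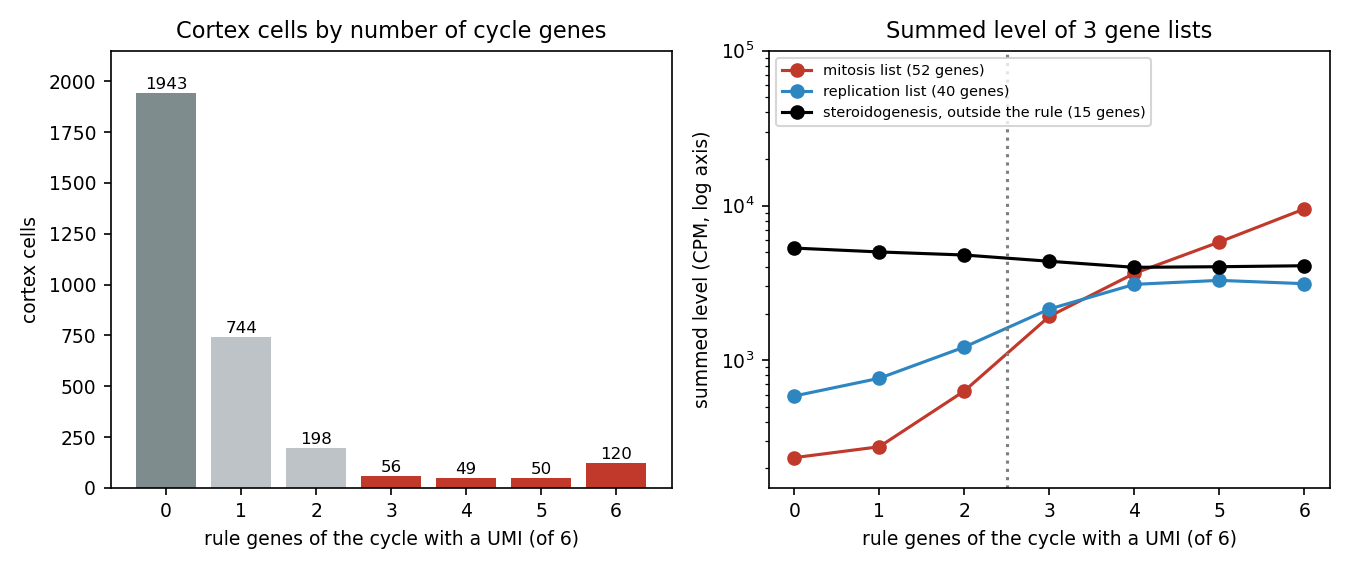
Left, number of cortex cells with 0 to 6 of the 6 cycle genes (dark grey: non-cycling group; light grey: in between; red: the 275 cycling cells). Right, level of 3 gene lists (summed CPM, log axis) in the same cells, with the limit of the rule as a dotted line: the mitosis list runs from 235 to 9501 CPM while the 15 steroidogenic genes outside the rule run from 5310 to 4083 CPM.

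Across all genes, 5721 had a mean of the 2 group levels of at least 20 CPM and were compared. For this count 10 CPM were added to each level, which shrinks the ratios of low genes. By this measure 224 genes were at least 2-fold higher in cycling cells, which is 3.92% of the genes compared, and 8 genes (0.140%) were at least 2-fold lower. Both counts depended on the settings, as given in the last section. The median ratio of all genes compared was 1.02. Of the 224 higher genes, 101 belonged to the cell cycle lists described below or were rule genes. Together the 224 genes took 3.99% of the UMIs of cycling cells and 0.806% of those of non-cycling cells. Since the members were picked on cell cycle transcripts, higher levels of cell cycle genes describe the choice and are not a finding about these cells.

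The genes of DNA replication, 40 in the list, were all above a ratio of 1, and 27 were at least 2-fold higher, none lower, beside the 3.92% of all genes. Their summed level was 2969 CPM in cycling and 588 CPM in non-cycling cells, a ratio of 5.05 (4.88 to 5.22). *Rrm2*, the regulated subunit of ribonucleotide reductase, was at 143 against 1.11 CPM, and *Tk1*, thymidine kinase, at 109 against 1.21 CPM. *Tyms*, which makes thymidylate, was at 147 against 11.0 CPM. The helicase gene *Mcm6* was at 115 against 25.3 CPM and *Pcna* at 158 against 29.0 CPM, a ratio of 5.45 (4.70 to 6.32). *Rrm2* and *Tk1* thus had far larger ratios than the helicase and clamp genes, which were also detected in 11.4% and 13.9% of non-cycling cells.

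Of 52 genes of mitosis, 46 were at least 2-fold higher, none lower, and the other 6 were under the level limit. Of all genes compared, 3.92% were higher and 0.140% lower. All 52 had ratios above 1. The summed level was 6600 CPM against 235 CPM, a ratio of 28.1 (26.9 to 29.3). *Nusap1*, which bundles spindle microtubules, was at 279 against 0.464 CPM, and *Ccnb1*, cyclin B1, at 162 against 0.371 CPM. *Cdc20*, the activator of the anaphase-promoting complex, was at 130 against 0.836 CPM. The checkpoint gene *Bub3* stood apart, at 169 against 70.5 CPM, a ratio of 2.39 (2.13 to 2.69), and it was detected in 30.8% of non-cycling cells.

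Histones, chromatin proteins and tubulins had 31 genes in the matrix. Of these, 19 were at least 2-fold higher and none lower, beside 3.92% of all genes compared higher and 0.140% lower. The replication-independent histone *H2afz* was the most abundant, at 3860 CPM (3787 to 3934) against 779 CPM, and it had a UMI in every member. In single members it ranged from 6.99 to 115 UMIs per 10000 (median 39.2), against a median of 6.79 in non-cycling cells, so that the groups overlapped. *Stmn1*, which destabilises microtubules, was at 454 against 10.5 CPM and had the largest ratio of CPM + 10 in this list. The linker histone *Hist1h1b*, which is made during DNA replication, was at 171 against 2.88 CPM, whereas *H1f0*, the linker histone of resting cells, was at 89.8 against 76.1 CPM, a ratio of 1.18 (1.02 to 1.36).

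The regulators that open the cycle were mostly too scarce to be compared. Of 17 genes of the entry into DNA replication, 5 met the level limit, and none of these 5 passed 2-fold in either direction, beside 3.92% of all genes higher and 0.140% lower. With so few genes, the count does not set the list apart. Of the 17 ratios, 12 were above 1. The D-type cyclins, which answer to growth signals, had no higher levels in dividing cells: *Ccnd1* was at 19.2 against 24.8 CPM, *Ccnd2* at 117 against 163 CPM and *Ccnd3* at 121 against 135 CPM. Their partner *Cdk4* was at 144 against 110 CPM, a ratio of 1.31 (1.16 to 1.47). Among the genes left out by the level limit alone, *Ccne2* was at 33.7 against 1.11 CPM and *Foxm1*, the transcription factor of mitotic genes, at 25.3 against 0.464 CPM.

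Among 17 genes that restrain the cycle, 12 met the level limit, and 3 of them, all CDK inhibitors, were at least 2-fold higher in the dividing cells, beside 3.92% of all genes. *Cdkn2d* was at 111 CPM (99.4 to 125) against 17.1 CPM, *Cdkn2c* at 56.8 CPM (48.3 to 66.4) against 6.69 CPM, and *Cdkn1a*, encoding p21, at 56.1 CPM (47.6 to 65.7) against 11.8 CPM. At 2000 UMIs per cell, *Cdkn1a* was found in 12.5% of cycling and 2.12% of non-cycling cells, and *Cdkn2d* in 23.4% and 3.15%. *Cdkn1c*, encoding p57 and known for its role in adrenal growth, was the most abundant inhibitor and went the opposite way, at 423 CPM (399 to 448) against 787 CPM, a ratio of 0.538 (0.506 to 0.572). This direction turns in the 171 members without a *Cyp11b1* UMI, where it was at 44.8 against 29.1 CPM. Over all members it was detected in 47.6% of the cycling cells and in 48.2% of the non-cycling cells, and at 2000 UMIs in 33.7% and 42.8%.

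Outside the cell cycle lists and the rule, the genes with the largest ratios of CPM + 10 included *Pclaf*, *Pbk*, *Lockd*, *Ccdc34*, *Cdkn3*, *Esco2*, *Spc24*, *Knstrn*, *Cenpp*, *Gas2l3*, *Cenpm*, *Mxd3*, *Sgo2a* and *Fam111a*. *Pclaf*, a partner of PCNA, was at 374 against 1.95 CPM, and the mitotic kinase gene *Pbk* at 202 against 0.557 CPM. *Ccdc34* was the most abundant of these, at 511 CPM against 27.2 CPM, and was found in 88.7% of members. The centromere gene *Cenpm* was at 476 against 54.6 CPM, and *Mxd3*, a MAX-binding repressor, was at 61.9 CPM in members with no UMI in the non-cycling group. With that group set at 3 counts the ratio was 222, and the lower limit of the exact interval from the counts as found was 179.

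The regions before the start of some of these genes are shown because the mitotic genes were high together. As background, genes that peak in mitosis often carry a CHR element, spelled TTTGAA, bound by the DREAM and MuvB complexes, and CCAAT boxes bound by NF-Y. RefSeq windows of the build GRCm38.p6, which is mm10, were searched over the 250 bases before the start, on both strands, and matches were allowed to overlap. TTTGAA was found in 41.3% of 46 windows for 44 of the 52 mitosis genes, in 12.8% of 39 windows for 32 of the 40 replication genes and in 16.0% of all 32851 windows. CCAAT was found in 76.1%, 59.0% and 33.8% of the same windows. Within the last 50 bases before the start, TTTGAA was in 19.6% of the mitosis windows, 2.56% of the replication windows and 2.63% of all windows. TTTGAA was in 3 of the 7 windows of the 6 rule genes, and for *Prc1* a window was printed only if it held TTTGAA. The last 100 bases before the start follow for 5 genes with TTTGAA there and for 2 rule genes without it, picked after the search, with matches to TTTGAA or CCAAT on either strand in capitals.
Ube2c, chr2:164769829-164769928, plus strand: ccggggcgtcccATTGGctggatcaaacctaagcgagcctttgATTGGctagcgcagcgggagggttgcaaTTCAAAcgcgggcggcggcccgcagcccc
Hmgb2, chr8:57511743-57511842, plus strand: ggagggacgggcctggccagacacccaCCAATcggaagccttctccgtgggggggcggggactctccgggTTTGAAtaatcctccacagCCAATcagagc
Prc1, chr7:80294376-80294475, plus strand: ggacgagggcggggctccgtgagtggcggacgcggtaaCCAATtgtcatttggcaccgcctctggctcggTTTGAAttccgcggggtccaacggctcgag
Top2a, chr11:99024190-99024289, minus strand: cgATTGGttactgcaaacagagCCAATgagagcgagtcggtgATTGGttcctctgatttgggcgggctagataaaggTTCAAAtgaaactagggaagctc
Cdc20, chr4:118437344-118437443, minus strand: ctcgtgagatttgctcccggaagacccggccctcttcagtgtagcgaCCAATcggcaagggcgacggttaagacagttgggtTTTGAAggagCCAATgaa
Cenpf, chr1:189688087-189688186, minus strand: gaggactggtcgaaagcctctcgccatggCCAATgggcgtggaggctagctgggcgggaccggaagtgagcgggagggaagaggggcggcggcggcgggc
Cks2, chr13:51645132-51645231, plus strand: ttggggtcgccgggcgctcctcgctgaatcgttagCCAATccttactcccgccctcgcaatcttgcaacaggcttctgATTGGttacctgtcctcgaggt
In *Ube2c*, *Hmgb2*, *Prc1*, *Top2a* and *Cdc20* the TTTGAA match nearest the start began 29, 30, 30, 23 and 18 bases before it. A match describes letters only, and no binding was measured.

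Steroidogenic transcripts made up a lower share of all transcripts in the dividing cells. Of 24 steroidogenic genes, 22 had ratios below 1. Of the 19 that met the level limit, 2 were at least 2-fold lower, *Cyp11b1* and *Akr1b7*. *Cyp11b1* is a rule gene, so that this count draws in part on values that the rule used. Outside the rule, 10 genes met the level limit and 1, *Akr1b7*, was at least 2-fold lower, beside the 0.140% of all genes. With 1 gene, the count does not set the list apart. Its ratio was 0.556 in cells without and 0.563 in cells with a *Cyp11b1* UMI, short of 2-fold in both. The list median of CPM + 10 ratios was 0.772 against 1.02 over all genes compared. The summed level was 23278 CPM in cycling and 34939 CPM in non-cycling cells, a ratio of 0.666 (0.661 to 0.672). The 9 cortex genes of the rule are in this list and carried 82.3% of its UMIs in cycling cells, so that this ratio rests mostly on values that the rule used, under a limit that both groups met. The other 15 genes summed to 4110 CPM against 5310 CPM, a ratio of 0.774 (0.758 to 0.790), with 13 of their ratios below 1 and a median of 0.891.

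*Star* was at 4843 CPM (4761 to 4925) in cycling and 6900 CPM in non-cycling cells, a ratio of 0.702 (0.689 to 0.715). *Cyp11a1* had a ratio of 0.667 (0.652 to 0.683), *Hsd3b1* of 0.597 (0.584 to 0.609) and *Cyp21a1* of 0.613 (0.599 to 0.626). The last enzyme, *Cyp11b1*, was at 787 CPM (754 to 821) against 2039 CPM, a ratio of 0.386 (0.369 to 0.403), and the ACTH receptor *Mc2r* was at 168 against 277 CPM. *Akr1b7*, an aldose reductase-like protein that ACTH induces, was at 291 against 594 CPM. The redox partner *Fdx1* was at 2816 against 3549 CPM, a ratio of 0.793, and *Tspo*, encoding the mitochondrial translocator protein, was at 1064 against 1177 CPM, a ratio of 0.904 (0.869 to 0.941). The ratios thus ran from little below 1 for *Tspo* down to less than 0.5 for *Akr1b7* and for *Cyp11b1*, the last step to corticosterone.

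Per cell, the groups overlapped widely. *Star* ran from 0 to 137 UMIs per 10000 in cycling cells (median 37.7) and from 0 to 186 in non-cycling cells (median 61.0). As UMIs per cell rather than as a share, the median was 35 for *Star* in cycling and 28 in non-cycling cells, 23 and 23 for *Cyp21a1*, and 25 and 27 for *Hsd3b1*. Their means were all higher in cycling cells, at 48.7 against 38.2 for *Star*, 32.5 against 29.3 for *Cyp21a1* and 38.3 against 35.4 for *Hsd3b1*. These 3 are rule genes. Of genes outside the rule, the median was 8 and 6 UMIs per cell for *Mrap*, 7 and 5 for *Fdxr*, 10 and 5 for *Tspo* and 3 and 2 for *Soat1*. *Cyp11b1* had a median of 0 in both groups and a mean of 7.91 against 11.3 UMIs per cell, and *Akr1b7* a mean of 2.92 against 3.29. The UMIs per cell thus ran from higher to lower in cycling cells, among a median of 9047 against 4696 UMIs in all, a depth that the rule itself favours. A fall in these transcripts and a rise in the others cannot be told apart from shares alone.

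**Figure D2:**
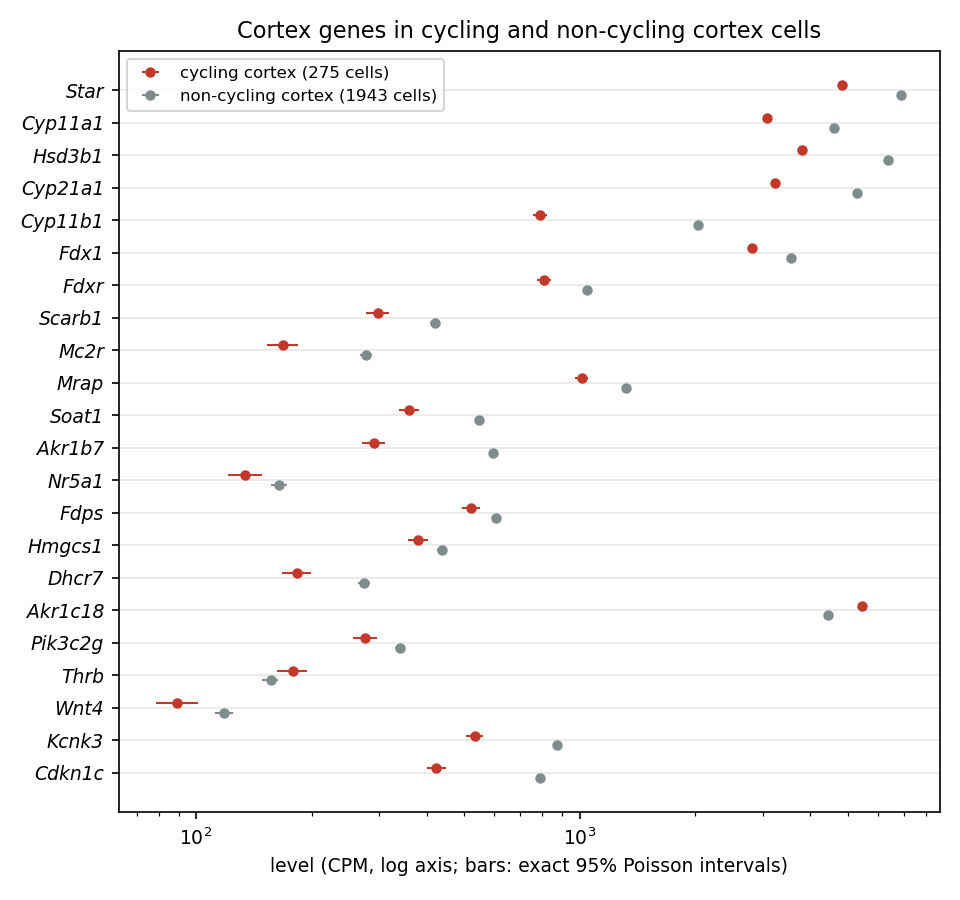
Levels of cortex genes (CPM, log axis) in 275 cycling (red) and 1943 non-cycling (grey) cortex cells, with exact 95% Poisson intervals, many of them smaller than the points. Steroidogenic genes such as *Cyp11b1* (787 against 2039 CPM) lie lower in cycling cells, and *Akr1c18* lies higher over all cells (5438 against 4436 CPM), though not in cells with *Xist*.

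Genes of cholesterol synthesis feed the same pathway. Of 24 genes, 20 met the level limit and none passed 2-fold, and the list median was 0.928, beside 0.891 for the 15 steroidogenic genes outside the rule. *Fdps*, which makes farnesyl diphosphate, was at 522 against 604 CPM, a ratio of 0.863 (0.815 to 0.914). *Dhcr7*, which acts last, had a ratio of 0.668 (0.606 to 0.734). Of 17 antioxidant and energy genes, 16 met the limit and none passed 2-fold, with the glutathione transferase *Mgst1* at 2194 against 2214 CPM. Metallothionein *Mt1* was highest in ratio there, at 487 against 254 CPM, 1.92 (1.80 to 2.05). Of 21 genes listed as transcription factors and regulators of the cortex, among them the mitochondrial peroxiredoxin *Prdx3*, 10 met the limit and none passed 2-fold, with *Nr5a1* at 134 against 164 CPM, *Gata6* at 128 against 129 CPM and *Hoxb9* at 229 against 245 CPM. Beside 3.92% of all genes higher and 0.140% lower, no count in these 3 lists stands apart.

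Outside the cycle and rule lists, the 15 genes with the smallest ratios of CPM + 10, among those that met the level limit, were *Hba-a1*, *Hbb-bs*, *Hbb-bt*, *Hao2*, *Tmem35a*, *Akr1b7*, *Gsta4*, *Aebp1*, *Gadd45b*, *Pnmt*, *Gulp1*, *C4b*, *Acsbg1*, *Klhdc8a* and *2010204K13Rik*. *Hao2*, a peroxisomal oxidase, was at 147 against 327 CPM, and *Tmem35a* at 77.5 against 171 CPM. In the cycling endothelial and chromaffin cells described below, *Hao2* was at 2.55 CPM and without a UMI, and *Tmem35a* without a UMI and at 3.41 CPM. The globins *Hba-a1*, *Hbb-bs* and *Hbb-bt* belong to red blood cells. *Hba-a1* was at 384 against 1141 CPM, and it had a UMI in 12.4% (8.72 to 16.8) of cycling and 10.2% (8.93 to 11.7) of non-cycling cells at their unequal depths. *Hba-a2* was at 6.51 against 24.2 CPM and had a UMI in 1.09% (0.226 to 3.15) and 2.52% (1.87 to 3.32). The part of red cell RNA in the other ratios was not tested. With *Chgb* and *Cyp11b1*, the first 6 of these genes were the 8 that passed 2-fold downwards.

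Growth signals of the cortex were compared next. Most genes of these pathways were too scarce to be compared, since 7 of 25 genes of the Wnt and hedgehog pathways and 7 of 30 genes of the IGF, FGF and Hippo pathways met the level limit. None of them passed 2-fold, which is no result about the pathways beside 3.92% of all genes higher and 0.140% lower. The R-spondin receptor *Lgr4* was at 124 against 165 CPM, *Ctnnb1*, encoding β-catenin, at 205 against 198 CPM, and the IGF receptor *Igf1r* at 157 against 195 CPM. The Wnt target *Axin2* was scarce in both, at 5.79 against 6.59 CPM. Of 22 immediate early genes, which also respond to dissociation, 19 met the limit and none passed 2-fold, with *Fos* at 429 against 406 CPM and *Egr1* at 216 against 162 CPM. In a list of 23 genes of ribosome building, nucleotide synthesis and translation, 20 met the limit and 2 of them passed 2-fold upwards, beside 3.92% of all genes. These were *Mthfd2*, a mitochondrial folate enzyme, at 86.9 against 19.3 CPM, and *Ran*, which drives nuclear transport and spindle assembly, at 714 against 325 CPM.

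Dividing cells were found in every group of cortex cells set by the UMIs of a zone gene. Of the cortex cells with no *Cyp11b1* UMI, 171 of 1683 were cycling (10.2%, 8.76 to 11.7). In cells with *Cyp11b1* up to the third quartile of its share of UMIs, 80 of 687 were cycling (11.6%, 9.34 to 14.3), and above the third quartile 24 of 790 (3.04%, 1.96 to 4.49). Median depths were close, at 5447, 4990 and 5734 UMIs. At 2000 UMIs per cell, where fewer cells reach the limits and the groups were set again from the thinned UMIs, the 3 shares were 5.99% (4.78 to 7.39), 5.93% (4.41 to 7.79) and 1.19% (0.516 to 2.34). *Cyp11b1* is one of the 9 cortex genes of the rule, and these shares restate its lower level in cycling cells (ratio 0.386, above) in another form.

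Cells with an *Akr1c18* UMI were cycling in 193 of 1840 cases (10.5%, 9.13 to 12.0), and cells without one in 82 of 1320 (6.21%, 4.97 to 7.65). An *Akr1c18* UMI was also found in 13.8% of cycling endothelial and 17.9% of cycling chromaffin cells, described below. A single UMI therefore does not place a cell in the X-zone. With groups set again at 2000 UMIs the shares were 6.18% (4.94 to 7.63) and 3.68% (2.79 to 4.75), whose intervals did not overlap. With groups kept as all UMIs set them, the shares at 2000 UMIs were 5.92% (4.78 to 7.25) and 3.64% (2.70 to 4.78), whose intervals just met. In cells with a Y-linked gene the shares were 13.1% (11.01 to 15.3) and 7.42% (5.44 to 9.83) from all UMIs, and 6.90% (5.25 to 8.86) and 3.98% (2.61 to 5.77) at 2000 UMIs, where the intervals overlapped. In cells with *Xist* the shares from all UMIs were 9.25% (6.41 to 12.8) and 7.12% (4.75 to 10.2), whose intervals overlapped, and the difference between the sexes was not tested. For *Wnt4* the shares were 8.55% with a UMI and 8.74% without, and at 2000 UMIs 3.50% (1.97 to 5.70) and 5.07% (4.23 to 6.03) with groups set again, or 4.25% (2.91 to 5.98) and 5.04% (4.14 to 6.06) with groups kept, where the intervals overlapped. By sex, 171 of 1565 cells with a Y-linked gene and no *Xist* were cycling (10.9%) against 59 of 725 cells with *Xist* and no Y-linked gene (8.14%), but with groups set again at 2000 UMIs the shares were 4.26% (2.95 to 5.94) and 5.56% (3.78 to 7.84). There 774 cells still showed a Y-linked gene alone, and cells with neither kind rose from 820 to 1512, so that these are other sets of cells. With the groups kept, the shares at 2000 UMIs were 5.59% (4.47 to 6.90) and 5.34% (3.75 to 7.35). The cells came from 5 pooled mice that cannot be told apart, so that these shares do not measure a difference between the sexes. By total UMIs, the share was 2.02%, 4.31%, 8.99% and 19.5% from the shallowest to the deepest quartile.

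**Figure D3:**
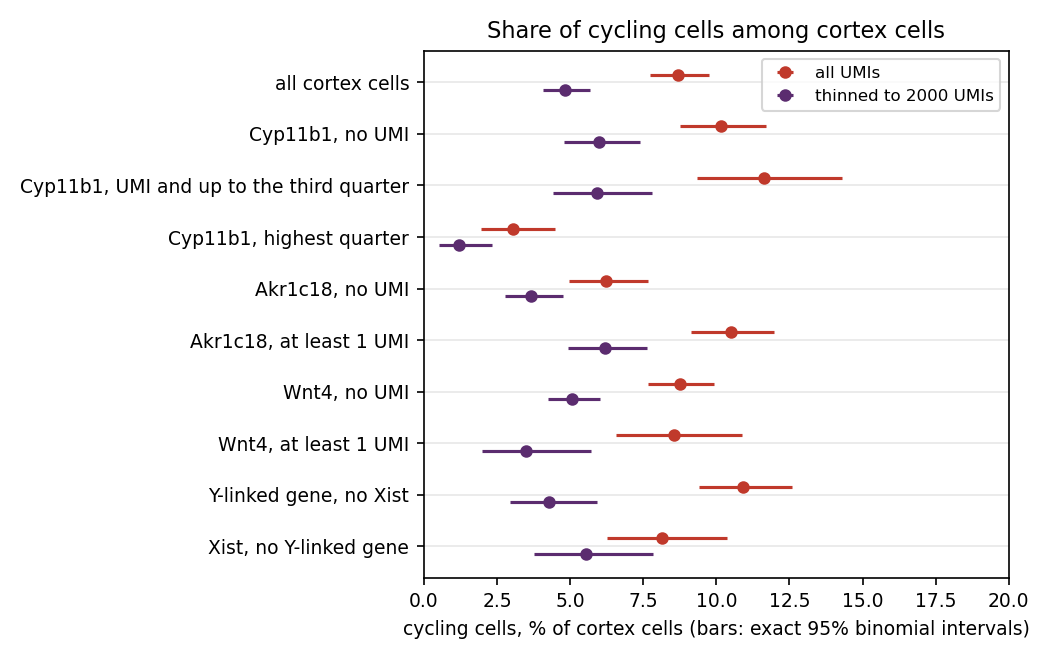
Share of cycling cells (% of cortex cells, points) in groups of cortex cells by *Cyp11b1*, *Akr1c18*, *Wnt4* and sex-linked transcripts, with exact 95% binomial intervals, from all UMIs (red) and with each cell thinned to 2000 UMIs and the groups set again (purple). Over both sexes, cells with an *Akr1c18* UMI have a share of 10.5% and cells without one of 6.21%, though the intervals overlap within cells with *Xist*, and the low share at the highest *Cyp11b1*, 3.04%, restates the level of that rule gene.

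The zone markers themselves were compared in the same way. *Akr1c18*, a reductase that degrades progesterone, was at 5438 CPM (5352 to 5526) in cycling and 4436 CPM in non-cycling cells, a ratio of 1.23 (1.20 to 1.25) that turns below 1 in cells with *Xist*. The other X-zone markers went both ways, with *Pik3c2g* at 277 against 340 CPM and *Thrb* at 178 against 156 CPM. Of 13 genes of the outer cortex, 5 met the level limit and none passed 2-fold, beside 3.92% of all genes higher and 0.140% lower. With 5 genes, the count does not set the list apart. *Wnt4* was at 89.4 against 118 CPM, a direction that turns in cells with a *Cyp11b1* UMI. The potassium channel *Kcnk3* was at 533 against 873 CPM, a ratio of 0.610 (0.577 to 0.645). That ratio was 0.441 (0.384 to 0.503) in cells without a *Cyp11b1* UMI and 0.804 (0.757 to 0.855) in cells with one. *Cyp11b2*, the aldosterone synthase of the outer zone, had a single UMI in the 275 members, 0.362 CPM, against 3.34 CPM. It could hardly be compared at this depth.

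Comparing like with like, within cells with or without *Cyp11b1*, with or without *Wnt4*, and within each sex, was added after the values had been seen. The 15 steroidogenic genes outside the rule had summed ratios of 0.747 (0.723 to 0.772) to 0.807 (0.771 to 0.844) in the 6 subsets. Among them, *Mrap* had ratios of 0.660 to 0.791, *Fdxr*, the reductase that feeds electrons to the steroid hydroxylases, of 0.753 to 0.842, and *Soat1*, which esterifies cholesterol for storage, of 0.621 to 0.762. *Tspo* was nearer to 1, at 0.874 to 0.964, and its interval reached past 1 in cells with *Xist* and in cells with *Wnt4*. The rule gene *Star* had ratios of 0.653 to 0.736. *Akr1c18*, *Cdkn1c* and *Wnt4* did not keep their direction. For *Akr1c18* this was so by sex. The ratio was 1.28 (1.25 to 1.31) in cells with a Y-linked gene, at 6070 against 4739 CPM, and 0.703 (0.665 to 0.743) in cells with *Xist*, at 2510 against 3570 CPM. It was 1.00 (0.986 to 1.02) in cells without *Cyp11b1*, where it was most abundant, and 3.17 (2.81 to 3.58) in cells with *Wnt4*, at 789 against 249 CPM. The 249 CPM lay near the 196 CPM of *Akr1c18* in cycling endothelial cells. For *Cdkn1c*, cells without *Cyp11b1* held little of it, 44.8 against 29.1 CPM, a ratio of 1.54 (1.16 to 2.04), and cells with *Cyp11b1* held 1023 against 1559 CPM, a ratio of 0.656 (0.616 to 0.699). *Wnt4* was at 31.3 against 85.7 CPM in cells without *Cyp11b1*, a ratio of 0.365 (0.269 to 0.486), and at 182 against 152 CPM in cells with it, a ratio of 1.20 (1.02 to 1.40).

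The members differed in how many cell cycle genes they showed, which also depends on depth. Of the 40 replication genes, a member had 1 to 33 with a UMI (median 16), and of the 52 mitosis genes 1 to 51 (median 25). Non-cycling cells had medians of 2 and 1, and 690 of the 1943 had no mitosis gene. At 2000 UMIs per cell, members still ranged from 0 to 17 replication genes (median 5) and from 0 to 32 mitosis genes (median 9), and 8 had no mitosis gene. For 2 short lists picked after the values had been seen, 146 members (53.1%) had at least 2 of the late genes *Ccnb1*, *Cdc20*, *Plk1* and *Aurka*, 56 had 1 and 73 had none. At least 1 of the early genes *Ccne1*, *Ccne2*, *Cdc6* and *E2f1* was found in 94 members, 36 had both an early gene and at least 2 late ones, and 34 had neither kind.

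*Star* was at 4502 CPM in the 146 members with at least 2 late genes and at 5354 CPM in the 73 with none, below the 6900 CPM of non-cycling cells in both, with median depths of 9552.5 and 8468 UMIs. *Cyp11a1* was at 2674 and 3854 CPM, *Cyp11b1* at 605 and 1026 CPM and *Cdkn1c* at 328 and 610 CPM in the same cells. *Akr1c18* was the reverse, at 5973 and 4497 CPM, and *H2afz* was at 4643 and 2520 CPM. The 34 members with neither kind had *Rrm2* at 44.4 CPM and *Hist1h1b* at 10.2 CPM, against 198 and 306 CPM in the 94 with an early gene. The rule asks for late genes, so that cells in early DNA replication can be missed by it.

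**Figure D4:**
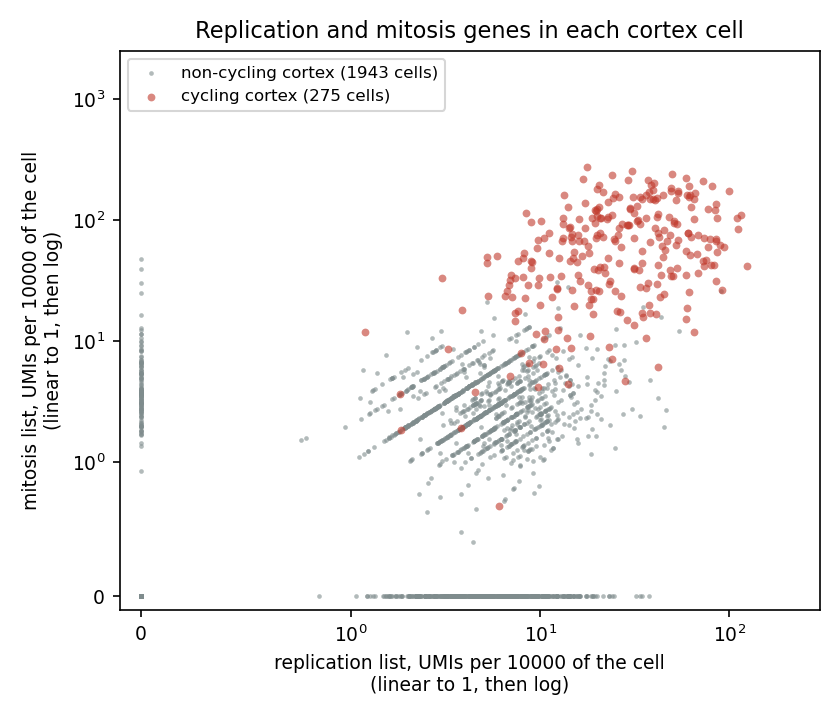
Each point is a cortex cell, with the UMIs of 40 replication genes (horizontal axis) and of 52 mitosis genes (vertical axis) per 10000 UMIs of the cell, on axes linear to 1 and logarithmic above. The 275 cycling cells (red; medians 24.9 and 56.9) spread from low to high on both axes, above most of the 1943 non-cycling cells (grey; medians 4.68 and 1.93).

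Cycling cells of the other 2 large lineages were found with the same limit of 3 cycle genes, at least 4 of the 7 endothelial or of the 7 chromaffin genes, fewer than 5 of the 9 cortex genes and fewer than 4 genes of the other list. The entry limit, 4 of 7, thus differed from the 5 of 9 for cortex, which can change the shares. This gave 355 cycling endothelial cells of 1935 (18.3%, 16.6 to 20.1) and 117 cycling chromaffin cells of 2675 (4.37%, 3.63 to 5.22). At 2000 UMIs the shares were 18.9% (16.6 to 21.3) in endothelial, 4.84% (4.08 to 5.69) in cortex and 3.26% (2.57 to 4.07) in chromaffin cells. Cells with fewer UMIs were left out, and these were 809 of the 1935 endothelial cells, including 518 of 836 without a cycle gene but 54 of the 355 cycling ones, which raises the endothelial share. Of the cortex cells 132 of 3160 were left out, including 103 of 1943 without a cycle gene but 2 of the 275 cycling ones. Of the chromaffin cells 457 of 2675 were left out, including 363 of 1691 without a cycle gene but 6 of the 117 cycling ones. This raises their shares too. The cortex share lay between the others at both depths. Its interval was apart from theirs, though only just from that of chromaffin cells at 2000 UMIs. These intervals cover counting error only, so that the last gap does not rank cortex above chromaffin cells. Between cycling cortex and cycling endothelial cells, 13.0% of 6315 genes were at least 2-fold higher and 14.8% at least 2-fold lower, and against chromaffin cells 11.9% and 13.6% of 6389 genes. Both groups were chosen to express cell cycle genes. Of the 157 outside the rule, 135 met the level limit against endothelial cells, where 3 were higher and 11 lower, and 133 against chromaffin cells, where 4 were higher and 7 lower.

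Among the cell cycle genes outside the rule that met the level limit, *Cdkn1c* had the largest ratio against both lineages. It was at 423 CPM against 32.5 CPM in endothelial and 7.95 CPM in chromaffin cells, ratios of 13.0 (9.83 to 17.6) and 53.2 (25.8 to 133). This level was carried by the 104 members with a *Cyp11b1* UMI, at 1023 CPM, while the other 171 members were at 44.8 CPM (35.3 to 56.1), close to the endothelial level. The tubulin *Tuba1c* followed in both, at 216 CPM against 92.5 and 44.3 CPM. *Cdca3*, which triggers entry into mitosis, was higher than in endothelial cells, at 169 against 75.3 CPM, and the nucleotide enzymes *Tk1* and *Rrm2* were higher than in chromaffin cells, at 109 against 29.5 CPM and 143 against 42.0 CPM. *H2afz* and *Ccng1*, at 1.97 and 2.59 times the endothelial level, and *Ttk*, at 2.55 times the chromaffin level, were next in rank, each under 2-fold once 10 CPM were added.

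Among the genes that were lower in cycling cortex were 2 of the D-type cyclins. *Ccnd1* was at 19.2 CPM in cycling cortex, 620 CPM in endothelial and 71.5 CPM in chromaffin cells, and *Ccnd2* at 117, 318 and 317 CPM, whereas *Ccnd3* was at 121, 86.1 and 73.8 CPM. *Cdkn1a* was at 56.1 CPM against 255 CPM in endothelial and 111 CPM in chromaffin cells, and *H1f0* at 89.8 against 386 and 223 CPM. The histone *Hist1h2ae* and the lamin *Lmnb2* were lower than in endothelial cells, at 39.1 against 119 CPM and 9.77 against 41.5 CPM. *Stmn1*, at 454 against 1210 CPM, and *Btg2*, at 73.5 against 225 CPM, were lower than in chromaffin cells. *Btg2* is an antiproliferative gene that also belongs to the immediate early list above, whose genes respond to dissociation. *Mki67* and *Top2a* were at 391 and 564 CPM in cortex, 596 and 703 CPM in endothelial and 326 and 556 CPM in chromaffin cells.

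**Figure D5:**
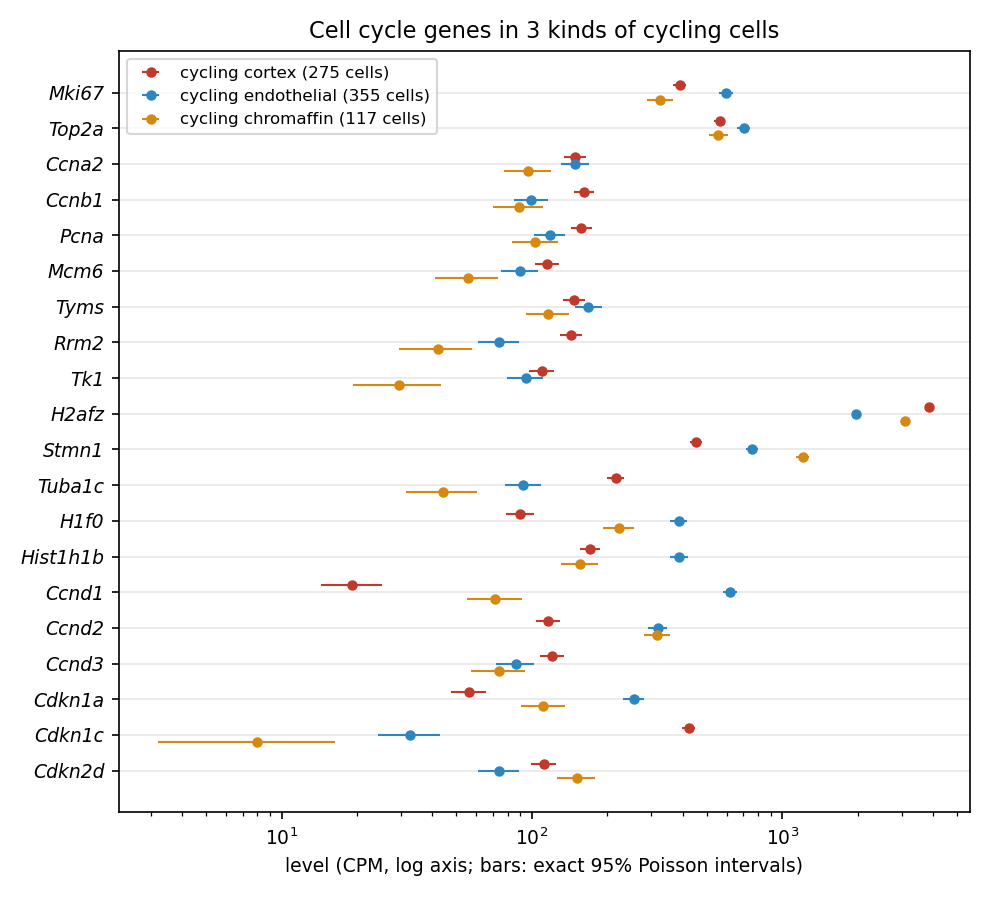
Levels of 20 cell cycle genes (CPM, log axis) in 275 cycling cortex (red), 355 cycling endothelial (blue) and 117 cycling chromaffin (orange) cells, with exact 95% Poisson intervals. Of the 3 kinds of cells, cortex has the lowest *Ccnd1* (19.2 CPM) and the highest *Cdkn1c* (423 CPM, but 44.8 CPM in the 171 members without a *Cyp11b1* UMI).

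Transcripts of other cell types were measured in the same cells. The rule allowed at most 3 of the 7 endothelial and 3 of the 7 chromaffin genes in a cortex cell, so that low sums of these 2 lists follow from it. The 7 endothelial genes summed to 60.8 CPM in cycling and 34.7 CPM in non-cycling cortex cells, against 6024 CPM in cycling endothelial cells, with *Egfl7* the most abundant at 20.6 CPM. *Cd34*, *Pecam1* and *Cdh5* were at 1.09, 1.45 and 1.81 CPM. Among members, 218 had none of the 7 genes and 18 (6.55%) had 3, just under the limit, against 30 (1.54%) of the non-cycling cells at their lower depth. The 7 chromaffin genes summed to 70.6 CPM against 146 CPM, led by *Chgb* at 34.0 against 80.7 CPM, and reached 53223 CPM in cycling chromaffin cells. The 10 immune genes summed to 170 against 115 CPM, led by *Cd74* at 34.4 CPM, and *Ptprc* was at 2.53 CPM. The 10 fibroblast and capsule genes summed to 20.3 against 26.1 CPM, led by *Dcn*, with no UMI for *Lum* or *Gli1*. The 8 sustentacular genes summed to 26.1 against 12.6 CPM, of which *Sfrp1* was 18.5 against 6.41 CPM and *Sox10* 0.362 against 0.464 CPM. The 5 erythroid genes had the highest sum of these lists, 1076 CPM in cycling against 3115 CPM in non-cycling cells, led by *Hbb-bs* at 617 against 1755 CPM. The part of these transcripts in the ratios above was not tested.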

How the data were processed

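The deposited values are whole-number UMI counts for each gene in each barcode, made by the authors with Cell Ranger 4.0.0 on mm10 per the submitters' processing notes and not normalized. The annotation version is not given in the sources used here. The matrix has 32285 genes and 11214 barcodes with 500 to 33809 UMIs (median 3250), already called as cells. Cells were selected by the limits given with the results. Members and gene lists were chosen with earlier results of these data known. Named genes are those of the rule, those of the lists that lead by CPM, pass 2-fold or are defining markers, the 15 of largest and the 15 of smallest ratio outside the cell cycle and rule lists, and for each other lineage the 5 cell cycle genes of largest and of smallest ratio. Of these, 2 genes are not reported here. Others named in the results were chosen after their values were seen. UMIs were summed by group, and 10 CPM added for rankings and 2-fold counts. A group at 0 UMIs was set at 3 counts over the group for a ratio. Cells were thinned at random to 2000 UMIs, leaving out cells with fewer, 2 of 275 cycling and 103 of 1943 non-cycling cells. Doublets were called with Scrublet at an expected 8% and kept. Python 3.11.15, numpy 2.4.6, scipy 1.17.1, pandas 2.3.3, scanpy 1.11.5 and matplotlib 3.10.9 were used. The summing, ratios and thinning were tested on simulated data. Alternatives changed the limits, comparison group, pseudocount and depth.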

Additional observations from a re-analysis of the deposited data

Results flagged for a closer look

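Barcodes outside the selection held a cycling cortex signal. There were 14 barcodes with over 5000 genes that met every other limit, 94 cells with the cortex and cycle genes and 4 or more endothelial genes, of which Scrublet called 27 doublets, and 33 cells with them and 4 or more chromaffin genes, of which it called 18. Of the last 2 kinds, 5 cells were both. None was used in the comparisons.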

How the results depend on the processing

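No paired analysis was possible because there was 1 library, and no replicate could be left out. The cycling share of cortex cells, 8.70%, became 14.97% with at least 2 of the 6 cycle genes, 6.93% with at least 4, 10.97% with limits of 1000 genes and 10% mitochondrial UMIs, and 4.84% at 2000 UMIs per cell. At 2000 UMIs it was 3.50% with and 5.07% without *Wnt4*, 5.99%, 5.93% and 1.19% with no, intermediate and the highest *Cyp11b1*, 6.18% with and 3.68% without *Akr1c18*, 4.26% in cells with a Y-linked gene and 5.56% in cells with *Xist*. In the same order but with groups kept as all UMIs set them, an alternative added after seeing the data, the shares at 2000 UMIs were 4.25% and 5.04%, 5.65%, 6.77% and 1.41%, 5.92% and 3.64%, and 5.59% and 5.34%. The 224 genes at least 2-fold higher became 135 with at least 2 cycle genes and 340 among cells of 3000 to 10000 UMIs. The 8 genes at least 2-fold lower became 3 with at least 2 cycle genes, 3 with the stricter gene and mitochondrial limits, 5 against all cortex cells under the cycle limit, 13 with a pseudocount of 1 CPM and 24 at 3000 to 10000 UMIs, and, in subsets added after seeing the data, 15 in cells with *Xist* and 24 without *Wnt4*. The causes were not tested. Of 79 ratios of named genes, between 70 and 79 stayed on their side of 1 under each alternative, with 70 of the 77 that could be computed in cells with a *Wnt4* UMI and 71 of 79 in cells with a *Cyp11b1* UMI. Many left the counting interval of their reported value, though: 54 of 77 in cells with a *Wnt4* UMI, 48 of 79 with at least 2 cycle genes and 46 of 79 at 3000 to 10000 UMIs were the most, and 1 without the 10 cycling and 48 non-cycling cells called doublets was the fewest.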
